A study of Mus musculus with 2 samples.

Results

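Imprinted genes are transcribed mainly from the copy inherited from one parent, and 40 mouse imprinted genes of 17 chromosomal clusters were examined here for accessible chromatin in granulocyte-monocyte progenitors (GMP), the bone marrow precursors of neutrophils and monocytes. The 40 genes are a fixed list of names, 32 protein-coding and 8 noncoding, and all 40 were found among the 55413 genes of the GENCODE M21 annotation. The list itself uses no measured value, but it was chosen with earlier results of these data known. A gene was scored as having an open promoter where the summit of an accessible region lay within 1000 bp of any of its annotated transcription start sites (TSSs).

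The assay was ATAC-seq, in which the Tn5 transposase cuts accessible DNA. The single group held 2 biological replicates of primary GMP from male C57BL/6J mice aged 5 to 6 weeks, with 50000 cells in each. The labels give the replicates separate sample identifiers and the same donor label, and do not say whether they came from separate animals. No second cell type, genotype or treatment was measured, and the animals are of one inbred strain, so the maternal and paternal copies cannot be told apart: each value below is for both copies together. The values come from the deposited conservative list of the series (75148 regions after overlapping entries were joined), with the thresholded list of each replicate beside it (65423 regions in replicate 1 and 53686 in replicate 2). Each list carries its own fold enrichment, so folds are ranked only within a list. All 8 GMP marker genes had an open promoter (Mpo at 5.5 and Elane at 6.84 fold), with a median of 7.91 fold. Of all protein-coding genes, 62.2% had one, with a median of 10.2 fold over the open genes. Among 15 markers of other lineages, 7 were open, including Snap25 of neurons at 20 fold, Col1a1 and Cdh5 of stroma and endothelium at 14.3 and 13.3 fold and Pax5 of B cells at 12.8 fold, whereas Klf1, Hba-a1, Cd79a, Cd3e, Cd8a, Alb, Myod1 and Neurod1 were not. The part of other cell types in the values below was not tested.

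An imprinted cluster is governed by a control region that carries DNA methylation on the copy from one parent, set in the egg or sperm and kept after fertilisation. On the methylated copy, the zinc finger protein ZFP57 recognises the letters TGCCGC when the CpG in them is methylated and helps to keep the mark, while CTCF, an insulator protein, binds its site at the H19 control region on the unmethylated copy. Many control regions are promoters of long noncoding RNAs, such as Kcnq1ot1 and Airn, whose transcription silences neighbouring genes on the paternal copy. YY1, a zinc finger protein with the core letters GCCATNTT, has a known site cluster in the Peg3 control region.

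Accessible sequences at such elements are shown first. The 5 member promoter regions with more than 1 TGCCGC include those at the maternally methylated control regions of Peg3, Plagl1, Peg13 and Impact. Stretches are printed for Peg3, Plagl1 and Peg13 only. Coordinates are of GRCm38 (mm10). Capitals mark TGCCGC or its reverse complement and, at Peg3, also GCCATNTT. The Peg3 stretch (chr7:6729449-6729718, minus strand, intron of Peg3) held 3 and 2 of these matches, the Plagl1 stretch (chr10:13090539-13090759, plus strand, intron of Plagl1) held 2, and the Peg13 stretch (chr15:72809930-72810069, minus strand, exon of Peg13, inside an intron of Trappc9) held 3.
Peg3: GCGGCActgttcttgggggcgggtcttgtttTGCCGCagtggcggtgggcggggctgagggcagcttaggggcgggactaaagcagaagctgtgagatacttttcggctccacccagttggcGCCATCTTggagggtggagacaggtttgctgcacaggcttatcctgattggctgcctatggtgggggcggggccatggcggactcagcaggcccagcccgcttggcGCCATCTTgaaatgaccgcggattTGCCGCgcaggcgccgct
Plagl1: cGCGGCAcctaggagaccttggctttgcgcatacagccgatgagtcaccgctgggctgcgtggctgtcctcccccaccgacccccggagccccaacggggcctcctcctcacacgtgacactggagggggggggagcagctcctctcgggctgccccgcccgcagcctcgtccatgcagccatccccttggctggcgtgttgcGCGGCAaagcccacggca
Peg13: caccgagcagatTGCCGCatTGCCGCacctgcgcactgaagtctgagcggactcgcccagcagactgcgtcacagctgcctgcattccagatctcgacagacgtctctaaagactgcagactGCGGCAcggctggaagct

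The remaining sequences show matches to the relaxed CTCF core, with the core in capitals, at the H19 control region and at accessible regions of 4 clusters. The first 3 lie upstream of H19 on the minus strand, at chr7:142580299-142580332, chr7:142580754-142580787 and chr7:142582024-142582057, and were intergenic, at -2.17, -2.63 and -3.9 kb from the first H19 TSS. The others are at the Meg3 promoter (chr12:109543028-109543061, minus strand, exon of Meg3), the Nespas promoter (chr2:174295442-174295475, minus strand), the Peg13 promoter (chr15:72810075-72810108, minus strand, exon of Peg13) and an intron of Usp29 (chr7:6940922-6940955, minus strand).
H19 at -2.17 kb: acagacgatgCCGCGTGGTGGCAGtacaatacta
H19 at -2.63 kb: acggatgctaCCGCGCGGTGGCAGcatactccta
H19 at -3.9 kb: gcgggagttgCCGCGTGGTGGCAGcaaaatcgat
Meg3: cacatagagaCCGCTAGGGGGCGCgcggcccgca
Nespas: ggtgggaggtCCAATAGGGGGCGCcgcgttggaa
Peg13: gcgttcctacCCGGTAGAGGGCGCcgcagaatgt
Usp29 intron: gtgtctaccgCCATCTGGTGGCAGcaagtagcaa

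An open promoter was found at 24 of the 40 imprinted genes (60.0%), against 62.2% of 21938 protein-coding genes and 26.6% of 10155 lncRNA genes. The share of imprinted genes was thus near that of all coding genes. It was 19 of 32 (59.4%) among the coding members and 5 of 8 (62.5%) among the noncoding ones, which are Kcnq1ot1, Meg3, Airn, Nespas and Peg13. The thresholded list of replicate 1 gave 23 of 40 (57.5%), against 61.0% of coding genes, and that of replicate 2 gave 20 of 40 (50%), against 57.6%. Of the 24 regions with the highest fold at each gene, 20 overlapped a region of both replicates. The exceptions were Kcnq1, Plagl1 and Igf2r, which had a region in replicate 1 only, and Phlda2, which had one in neither replicate's list.

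A region within 1000 bp of the first annotated TSS was present at 21 of 40 imprinted genes (52.5%), against 56.9% of protein-coding genes. Over these first starts the median fold was 8.62 for the imprinted genes and 10.1 for coding genes. With only transcripts tagged basic in the annotation, 23 of 40 imprinted genes (57.5%) and 60.1% of protein-coding genes had an open promoter. The genes on the list have a median of 6 annotated TSSs, against 3 for coding genes, so they had more places to score. Among genes with 6 TSSs or more, 10 of 16 coding members (62.5%) and 90% of 5967 coding genes were open.

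CpG-rich promoters are a class that is open in most cell types. Among genes with a CpG-rich TSS, a smaller share of imprinted genes was open. Genes were counted as open by a summit at any of their TSSs, CpG-rich or not. A TSS was called CpG-rich where the 1000 bp about it had a GC content of at least 55% and a ratio of observed to expected CpG of at least 0.6. Of the 24 imprinted genes with such a TSS, 16 were open (66.7%), against 90.1% of 10110 protein-coding genes with one. Of the 16 imprinted genes without one, 8 were open (50%), against 38.4% of coding genes without one. The 8 CpG-rich genes with no promoter region were Igf2, Dlk1, Ascl2, Mest, Nnat, Nap1l5, Sgce and Usp29. In the looser series-level list of 125024 regions, 97.1% of CpG-rich coding genes were open and all 8 of these genes gained a promoter region of low fold, between 2.4 at Igf2 and 4.91 at Nap1l5.

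For 3 of these 8 genes the call rested on the width of the window. Usp29 starts beside Peg3 and Sgce, a sarcoglycan gene, starts beside Peg10, in the opposite direction. The summits of the Peg3 and Peg10 regions lay 1009 bp from a TSS of Usp29 and 1008 bp from one of Sgce, which is 9 and 8 bp beyond the window. Ascl2, a transcription factor gene of the placenta, had a summit of 8.41 fold at 1119 bp. With a window of 2500 bp, 27 of 40 imprinted genes (67.5%) and 66.4% of coding genes had a region, and among CpG-rich genes the counts were 19 of 24 (79.2%) and 92.4%. The nearest summit was further for the other 5, at 5.82 kb for Nnat, 6.61 kb for Dlk1, 9.63 kb for Nap1l5, 29.7 kb for Mest and 42.3 kb for Igf2.

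The 16 genes with no promoter region in the conservative list thus fall into 2 groups of 8. The other group had no promoter region in the looser list either, where 32 of 40 imprinted genes (80.0%) were open, against 69.8% of coding genes. It holds H19, a maternally expressed lncRNA of the embryo, Snrpn, which encodes a splicing protein of the brain, Ndn and Magel2, MAGE family genes of the brain, Zim1, a zinc finger gene, Rtl1, a retrotransposon-derived gene of the placenta, and Rian and Mirg, noncoding genes that carry snoRNAs and miRNAs. In a window from each gene's body to 10 kb beyond it, 9 of 40 imprinted genes held no region at all (22.5%), against 21.4% of coding genes. The 9 were Igf2, Mest, Snrpn, Ndn, Magel2, Zim1, Rtl1, Rian and Mirg, and the median imprinted gene held 3 regions, as did the median coding gene. The imprinted genes were longer, with a median length of 26.1 kb against 17.4 kb for coding genes, so these windows are not matched for length.

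Growth regulators showed a spread of promoter values. The promoter of Grb10, an adaptor that limits insulin and growth factor signalling, had 13.9 fold in the series list, 13.7 in replicate 1 and 11.7 in replicate 2. This region was 12.7 kb inside the gene, at a downstream TSS, and none lay at the first TSS. Cdkn1c, a cyclin-dependent kinase inhibitor that keeps blood stem cells quiescent, had 9.64 fold, with 9.51 in replicate 1 and 8.45 in replicate 2. Igf2r, the receptor that clears IGF2, had 7.49 fold and 7.17 in replicate 1. Plagl1, a zinc finger gene that restrains growth, had 5.91 fold and 6.99 in replicate 1. The lowest was Phlda2, a placental growth limiter, at 4.51 fold, above only 1.69% of open coding promoters. The growth factor genes Igf2 and Dlk1 had none, as given above.

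Noncoding members that act in cis were open at 5 promoters. The lncRNA Kcnq1ot1, which silences the genes around it on the paternal copy, was the highest, with 13.5 fold in the series list, 13.4 in replicate 1 and 12.2 in replicate 2, above 82.1% of open coding promoters. Its summit lay 58 bp upstream of the TSS. Meg3, a maternally expressed lncRNA, had 10.1 fold, with 10.1 in replicate 1 and 8.68 in replicate 2, at a region 2.04 kb inside the gene that holds the printed CTCF match. Peg13 had 7.83 fold (8.0 and 7.15 in replicates 1 and 2), Nespas 7.78 fold (10.1 and 5.04) and Airn 7.58 fold (7.24 and 6.96).

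Ppp1r9a, which encodes neurabin, an actin-binding scaffold, had the highest promoter value of the 40 genes, at 19 fold in the series list, 17.8 in replicate 1 and 16.9 in replicate 2. That region was 208 kb inside the gene, at the start of a noncoding transcript that is not in the basic set, and its first promoter had 4.99 fold and no region in either replicate's list. Mkrn3, a ubiquitin ligase gene that restrains puberty in the hypothalamus, followed at 17.6 fold, with 16.7 in replicate 1 and 14.1 in replicate 2. It was above 97.9% of open coding promoters, whereas its neighbours Ndn and Magel2 had no promoter region. Ube3a, the ubiquitin ligase gene of Angelman syndrome, had 10.8 fold (10.9 and 10.3 in replicates 1 and 2). Peg3, a zinc finger gene, had 9.49 fold (10.1 and 7.63), and Peg10, a retrotransposon-derived gene of the placenta, had 5.72 fold (5.03 and 6.08). A further region, in an intron of Peg10 with its summit outside the promoter window, had 11.5 fold (10.8 and 11.1).

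Gnas, which encodes the stimulatory G protein alpha subunit, held the most promoter regions, 6 in the series list. The highest, 60 kb from the first TSS and at a retained-intron transcript outside the basic set, had 11.1 fold, with 11.2 in replicate 1 and 9.98 in replicate 2, and was poor in CpG, with an observed to expected ratio of 0.0679. The other 5 lay between 3.25 and 5.99 fold. Slc22a18, a transporter gene, had 8.62 fold (9.9 and 6.6 in replicates 1 and 2), and Kcnq1, a potassium channel gene, had 6.34 fold and 6.36 in replicate 1. Their folds and those of the other open members are drawn by replicate.

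**Figure D1:**
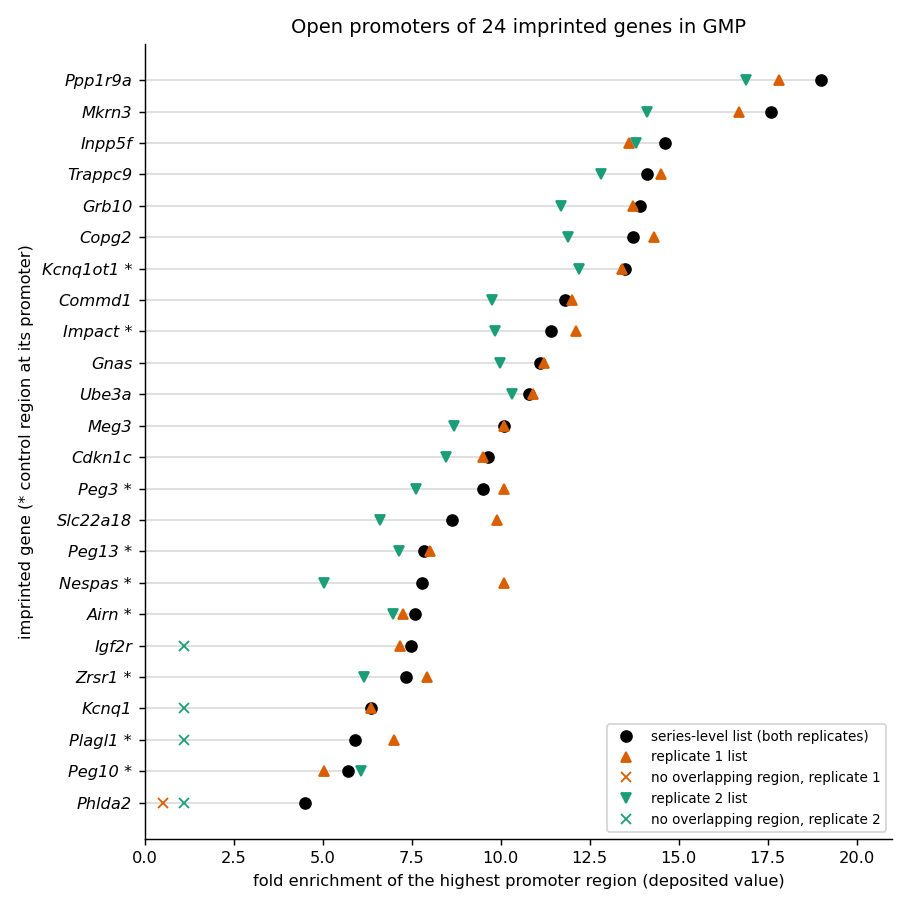
Fold enrichment (x axis, deposited value) of the highest promoter region of each of the 24 open imprinted genes (y axis) in the series list (black), replicate 1 (upward triangles) and replicate 2 (downward triangles), with crosses near 0 where a replicate's list has no overlapping region. Values run between 4.51 at Phlda2 and 19 at Ppp1r9a, and asterisks mark the 9 genes listed with a control region at the promoter.

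Open promoters of genes listed with a control region at the promoter had a lower median fold than those of the other open genes. Of the 13 genes so listed, 9 were open (69.2%), with a median fold of 7.78 over those 9. Of the other 27 imprinted genes, 15 were open (55.6%), with a median of 11.1. The split follows the list only: whether promoters of the other genes are control regions too was not examined. These others include Grb10, Gnas and Inpp5f, which have internal promoters, and the Grb10 value of 13.9 fold is from such a promoter. The 2 groups may therefore not be cleanly separated, and DNA methylation was not measured. Over all 24 open genes the median was 9.86, against 10.2 for 13654 open coding genes. In replicate 1 the medians were 10.1 for the imprinted genes and 10.7 for coding genes, and in replicate 2 they were 9.91 and 9.29. With basic transcripts only, the median was 7.78 for the imprinted genes and 10.1 for coding genes, since downstream starts such as that of Ppp1r9a are then left out. In all, 15 imprinted genes (37.5%) and 46.0% of coding genes had a promoter region at or above 8.09 fold, the median of all regions. At the control regions, 3 of the 9 open promoters reached it, those of Kcnq1ot1, Impact and Peg3. At Impact that value belongs to the first promoter, and the internal region, where the known methylated element lies, had 6.48 fold.

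**Figure D2:**
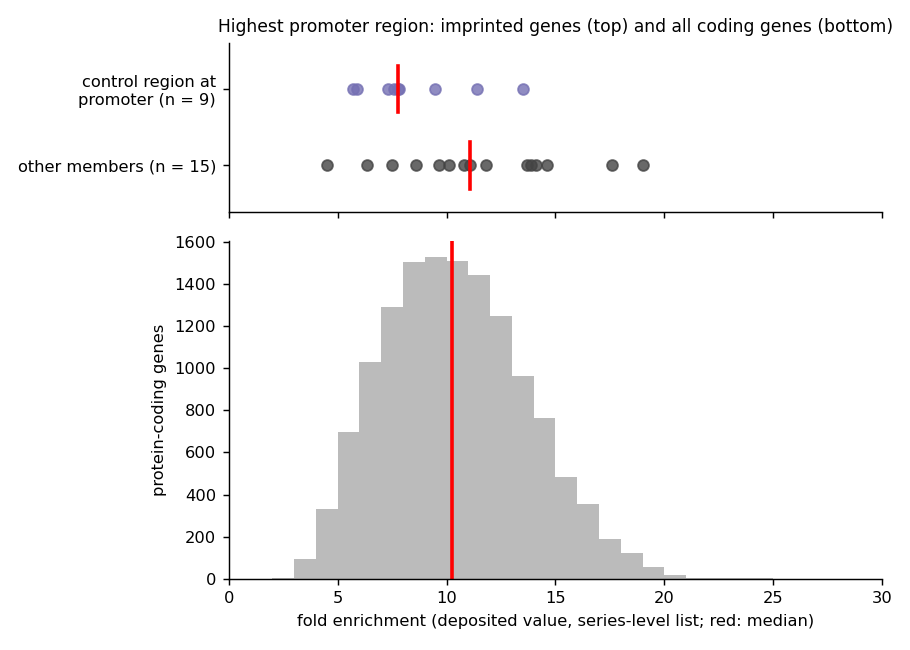
Fold enrichment (x axis) of the highest promoter region of the open imprinted genes, split into 9 listed with a control region at the promoter and 15 others (upper panel, 1 point per gene), above a histogram of the same value over 13654 open coding genes (y axis, number of genes). Red lines are medians: 7.78 for the control promoters, 11.1 for the others and 10.2 for coding genes.

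The expressed copy divided the genes in another way. It is the copy named in the gene list, and was not measured in GMP. Of 18 genes listed as maternally expressed, 13 were open (72.2%) with a median of 10.8 fold. Of 22 listed as paternally expressed, 11 were open (50%) with a median of 7.83 fold. Whether each gene is imprinted in GMP was not tested. Over all coding genes the share was 62.2% and the median 10.2 fold. All 13 control promoters belong to paternally expressed genes, so these 2 divisions of the list overlap.

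Nested promoters were lower than those of their hosts at most of the pairs chosen here. At 6 pairs the imprinted gene starts inside another gene, at another Mest overlaps Copg2 at its 3′ end, and at Impact and Inpp5f a second promoter lies inside the gene. Peg13 had 7.83 fold, against 14.1 at the first promoter of its host Trappc9, a trafficking gene (14.5 and 12.8 in replicates 1 and 2). Zrsr1, a splicing factor retrogene, had 7.33 fold (7.92 and 6.16), against 11.8 at the first promoter of Commd1, a gene of copper handling (12.6 and 10.3). The internal promoter of Inpp5f, a phosphatase gene, had 6.47 fold (5.95 and 6.35 in replicates 1 and 2), against 14.6 at the first promoter (13.6 and 13.8). At Impact, a gene of translation control, the internal promoter had 6.48 fold (6.52 and 6.23) against 11.4 (12.1 and 9.85).

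Mest, a hydrolase gene, had no region, and its neighbour Copg2, a vesicle coat gene, had 13.7 fold (14.3 and 11.9 in replicates 1 and 2). Nnat, a proteolipid gene of the brain, had none inside Blcap, whose highest promoter region had 8.4 fold (8.57 and 7.43). Another Blcap promoter region had 4.85 fold and no region in either replicate's list. Nap1l5, a nucleosome assembly retrogene, had none inside Herc3, whose highest promoter region had 6.96 fold (6.85 and 6.53). The order was the other way at Kcnq1ot1, with 13.5 fold against 6.34 at Kcnq1, whose promoter was absent from the replicate 2 list. Airn and Igf2r had 7.58 and 7.49 fold. Of the 9 pairs, 7 thus had the higher fold at the host or first promoter, and in the replicate lists these 7 kept that order. The pairs are a chosen list, and other genes with downstream starts are not among them. Some of those go the other way. Ppp1r9a had 19 fold inside the gene against 4.99 at its first promoter, and Gnas had 11.1 against 5.99. Grb10, Meg3 and Plagl1 had a region at a downstream TSS and none at the first.

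**Figure D3:**
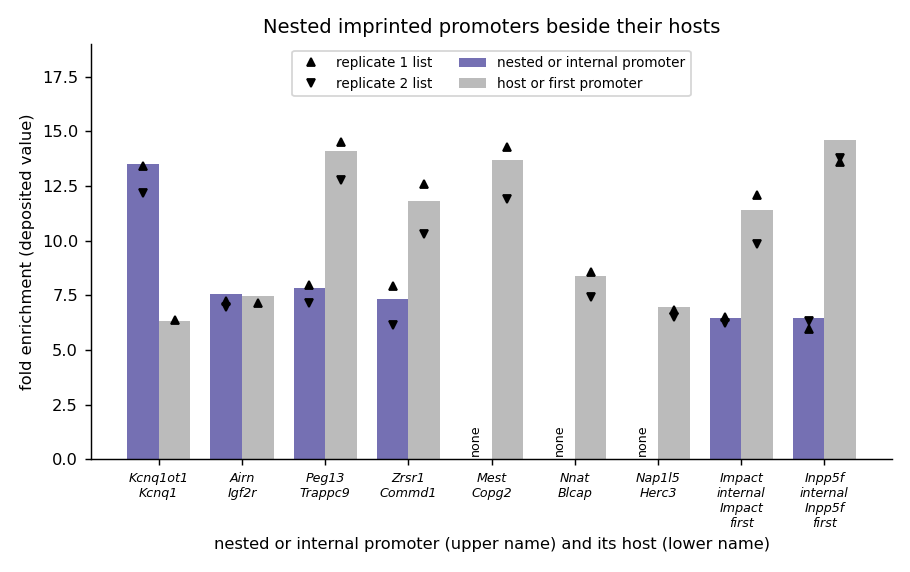
Fold enrichment (y axis) of 9 nested or internal promoters (purple) and of their host or first promoters (grey) in the series list, with triangles for replicate 1 (up) and replicate 2 (down). The nested bar is the lower or is missing at 7 of 9 pairs, and the higher at Kcnq1ot1 (13.5 against 6.34) and Airn (7.58 against 7.49).

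Of the 15 germline control regions listed, 10 held an accessible region, 9 of them at promoters. These were 9 of 13 control promoters (69.2%), against 62.2% of coding genes and 90.1% of those with a CpG-rich TSS. With a window of 500 bp at the control promoters, 7 of the 15 held a region, and the share over all coding genes was not counted. The summits at Peg3, Peg10 and Airn lay at 850, 809 and -664 bp from a TSS. The Airn region was poor in CpG, with an observed to expected ratio of 0.0614. The highest promoter region lay over 500 bp from the TSS at 4 of 24 open imprinted genes (16.7%), against 9.27% of open coding genes. The looser list held a region at 14 of the 15 control regions, and the sole exception was Snrpn. In that list 69.8% of coding genes, and 97.1% of those with a CpG-rich TSS, had a promoter region. The 158 kb Snrpn gene held no region in any of the 7 lists examined. At the intergenic control region between Dlk1 and Meg3, from 17 to 11 kb upstream of Meg3, 2 regions were found, at -15.2 kb with 5.85 fold (6.41 and 4.86 in replicates 1 and 2) and at -11.6 kb with 3.37 fold, and 26.2% of coding genes held a region in that window. At the H19 control region, from 4 to 2 kb upstream of H19, the conservative list held none, against 8.77% of coding genes with a region there. The thresholded and looser lists held one at 5.75 fold with a summit at -2.19 kb, inside the first printed stretch. The looser lists of replicates 1 and 2 held it at 7.28 and 3.8 fold. The looser series list also held one of 3.98 fold at -3.66 kb.

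Matches to motifs were counted on both strands in the 300 bp about each summit, and a match is a description of letters, not of binding. TGCCGC was present in 10 of 37 promoter regions of the imprinted genes (27.0%), against 19% of 19009 promoter regions of all genes. More than 1 match was present in 5 (13.5%) against 2.94%, a count chosen after the matches had been seen. These 5 were at Peg3, Plagl1, Peg13 and the internal promoters of Impact and Inpp5f. Peg3, Plagl1, Peg13 and Impact are among the 13 genes counted above with a control region at the promoter, and Inpp5f is counted among the other 27. GCCATNTT was in 3 regions (8.11% against 7.3%), of Peg3, Nespas and Mkrn3. The relaxed CTCF core was in 5 (13.5% against 9.73%), of Meg3, Nespas, Peg13, Copg2 and Gnas. Blood factor motifs were near or below the shares of all promoters: GAGGAAGT of PU.1 was in 8.11% against 5.84%, TTGCNNAA of C/EBP in 5.41% against 11.2% and TGTGGTTT of RUNX in none against 2.25%. The median GC content was 59.3% against 60.7%. In the 2 kb control window of H19, 3 CTCF matches were found, and 0.0456% of the same windows upstream of coding genes held 3 or more.

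Across the 17 clusters, each reaching 10 kb beyond its outermost listed genes, 185 regions lay in 6.52 Mb. That is 28.4 regions per Mb, against 27.6 over all 21 chromosomes, where the median 1 Mb tile held 23. The Snrpn/Ube3a cluster takes up 3.21 of the 6.52 Mb, and without it the other 16 clusters held 179 regions at 54.1 per Mb. Of the 17 clusters, 13 were denser than all chromosomes together. Clusters are cut to the spans of genes, whereas chromosomes and tiles include sequence far from genes, so these densities are not matched. No density over the spans of all genes was computed. In windows of each gene plus 10 kb, the median was 3 regions for imprinted genes and 3 for coding genes. The clusters differed widely. Density was 134 per Mb at Nnat (3 regions), 132 at Commd1/Zrsr1 (14), 77.3 at Kcnq1 (43), 54.8 at Peg10/Sgce (28), 52.9 at Trappc9/Peg13 (26) and 41.1 at Dlk1/Meg3 (13). It was 18 at H19/Igf2 (2), 15.5 at Mest/Copg2 (3), 9.5 at Peg3 (3) and 1.87 at Snrpn/Ube3a (6 in 3.21 Mb), where the lower quartile of 1 Mb tiles was 4. The span of the smallest clusters is set by the 10 kb margins.

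**Figure D4:**
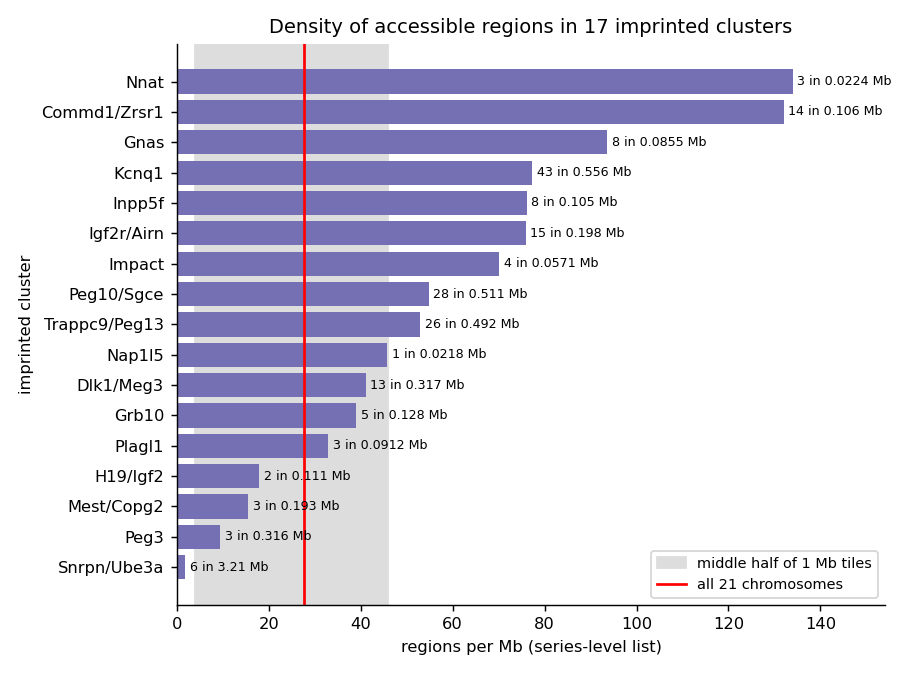
Accessible regions per Mb (x axis, series list) in each of 17 imprinted clusters (y axis), with the number of regions and the span printed beside each bar, the density over all 21 chromosomes as a red line and the middle quartiles of 1 Mb tiles shaded. Clusters run between 1.87 per Mb at Snrpn/Ube3a and 134 per Mb at Nnat.

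The Kcnq1 and Snrpn/Ube3a clusters stood at opposite ends among large clusters. In the Kcnq1 cluster, 29 of 43 regions (67.4%) were in both replicates, beside 62.2% of the 185 regions of all clusters and 66.1% of all regions in the list. The highest of the Kcnq1 cluster lay away from promoters, at 15.9 fold in an exon of Kcnq1ot1 (16.2 and 12 in replicates 1 and 2) and 15.8 fold in an intron of Kcnq1 (17.6 and 11.7). In the Snrpn/Ube3a cluster, gaps of 2.01 and 1.07 Mb held no region, of which 1.76 and 1.07 Mb remained free in the looser list, and 1.56% of the cluster is unsequenced in the assembly. Of the 6 regions, the highest were 17.6 fold at Mkrn3 and 16.5 fold in an intron of the gene model Gm32061 between Magel2 and Mkrn3 (17 and 12.1 in replicates 1 and 2). The others had 10.8 fold at Ube3a, 10.4 in an exon of Snhg14 (10.8 and 7.28), 7.66 in intergenic sequence (9.07 in replicate 1 only) and 5.92 in intergenic sequence, with no region in either replicate's list.

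**Figure D5:**
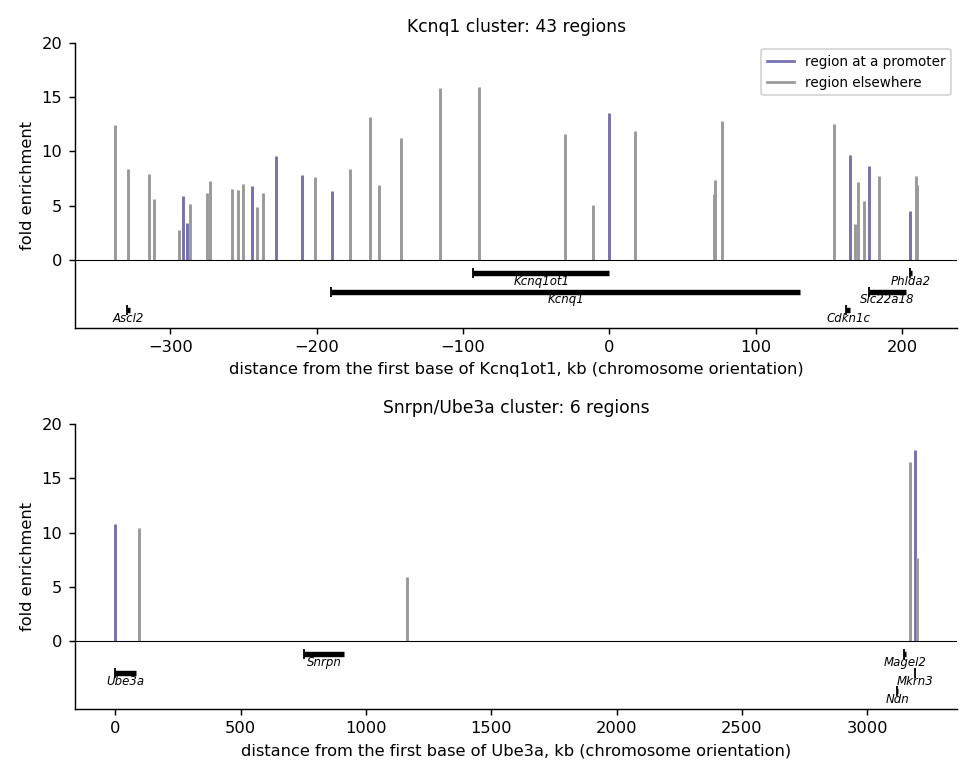
Fold enrichment (y axis, series list) of each region against distance in kb (x axis) from the first base of Kcnq1ot1 in the Kcnq1 cluster (top) and of Ube3a in the Snrpn/Ube3a cluster (bottom), with listed genes as black bars and regions at promoters in purple. There are 43 regions in the upper map and 6 in the lower, which leaves Snrpn in a gap of 1.07 Mb.

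Most cluster regions were intronic. Introns held 103 of 185 (55.7%, against 38.4% of all regions), promoters 46 (24.9% against 25.3%), exons 10 (5.41% against 4.62%) and intergenic sequence 26 (14.1% against 31.7%). Clusters are cut to the spans of their genes, so sequence far from genes is left out of them. The highest region of all clusters was in an intron of Plagl1, at 19.2 fold (19.9 and 13.7 in replicates 1 and 2), where the promoter had 5.91. An intron of Copg2 held 17 fold (17 and 13.7), an intron of Sgce 16.9 fold (17.1 and 14.5) although no summit lay within 1000 bp of its TSSs, and an intron of Airn 13.9 fold (14.6 and 11.5). An intron of Herc3 within 10 kb of Nap1l5 held 13.9 fold (13.6 and 13). In the Peg3 cluster all 3 regions were in both replicates, the Peg3 promoter and 2 introns of Usp29 with 13 and 8.53 fold that hold CTCF matches. The PU.1 letters were in 14.4% of the 139 cluster regions away from promoters and in 12.6% of all such regions, and the C/EBP letters in 15.8% against 21.2%.

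Genes that set or keep imprints were open at 21 of 22 promoters (95.5%), with a median of 9.1 fold, beside 62.2% of all coding genes with a median of 10.2 fold. Among coding genes with a CpG-rich TSS the share was 90.1%, and how many of the 22 have such a TSS was not counted. Zfp445, a zinc finger gene that maintains imprints, had 16.1 fold (15.6 and 14.2 in replicates 1 and 2), Setdb1, a histone methyltransferase gene, 16.0 (15.7 and 13.8) and Dnmt1, the maintenance DNA methyltransferase gene, 13.5 (14.0 and 11.7). Zfp57 had 6.31 fold in the series list and no region in either replicate's list, and Ctcfl, a germline relative of CTCF, was the gene without one. A second list of 32 other imprinted genes and cluster neighbours had 21 open promoters (65.6%), beside 24 of the 40 genes above (60.0%) and 62.2% of coding genes.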

How the data were processed

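Accessible regions were taken from the deposited peak lists, in mm10 coordinates per the labels. Per the file names, the authors thresholded the conservative and thresholded lists by IDR (agreement between ranked lists). For the aligner and the peak caller, the sources used here give no name. The deposited value used is the fold enrichment ratio of each peak. Read counts and depth are unknown, so no interval or test was computed, and groups are described by counts and medians. Overlapping rows (1 bp) were joined, with the summit and fold of the highest row. TSSs, exons and introns came from GENCODE M21, and sequences from the RefSeq copy of GRCm38. Python 3.11.15, numpy 2.4.6, pandas 2.3.3, pysam 0.24.0 and matplotlib 3.10.9 were used, and the joining, promoter scoring and motif search were tested on simulated data. The relaxed CTCF core was searched by its zinc finger contact letters. The genes named are all 40 members, the highest region of clusters, regions in control windows and hosts of nested genes. One marker gene of another lineage is not reported here. The members and lists were chosen with earlier results of these data known. Alternatives were other lists, windows, margins and TSS sets.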

Additional observations from a re-analysis of the deposited data

Results flagged for a closer look

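Regions outside the conservative list were flagged where the looser series-level list, which was not used for the main counts, held one at an element closed in the conservative list. This applied to the promoters of Nap1l5 at 4.91 fold, Dlk1 at 4.81, Mest at 4.78, Sgce at 3.99, Ascl2 at 3.81, Nnat at 3.76, Usp29 at 2.93 and Igf2 at 2.4. It also applied to the H19 control region at 5.75 fold. There are no control samples, and a looser threshold adds regions everywhere: 69.8% of protein-coding genes had a promoter region in that list, against 62.2% in the conservative one.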

How the results depend on the processing

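Of 54 alternative values, 30 stayed within the set range and 24 moved. For counts and shares the range was a fixed ratio to the main value. For densities and medians it was the standard deviation between the replicate lists, which was 0.134 for the median fold. By these unlike rules, 24 to 32 open promoters stayed in range, whereas a median fold of 9.86 to 9.64 moved. Open promoters numbered 15 at or above the median fold of all regions, and control regions with a region 3. Cluster regions numbered 293 in the looser list, 81 at or above that median and 121 to 165 in single replicates. Their density was 44.9, 12.4 and 18.5 to 25.3 per Mb in the same settings, and 54.1 per Mb without the Snrpn/Ube3a cluster. The median fold of open promoters was 9.64 in the series-level thresholded list, 7.8 in the looser list, 11.8 at or above the median, 9.91 to 10.1 in single replicates, 11.0 with a 500 bp window, 10.1 with 2500 bp, 7.78 with basic transcripts, 8.62 with first starts only and 9.64 with the summit of every row. Regions per gene span had a median of 4 in the looser list, 2 to 3 in single replicates, 1 at or above the median fold, 1 without a margin and 6.5 with 50 kb. Any of the 6 motifs was in 48.6% of member promoter regions, and in 32.4% within 50 bp of the summit. Lists with fewer or shorter entries hold fewer regions by construction. First starts, genes with 6 starts or more, CpG-rich genes at 2500 bp, more than 1 TGCCGC and the omission of Snrpn/Ube3a were chosen after seeing the data. No paired analysis was possible because there is a single group. The absence of a region means that none passed the list's threshold at an unknown depth.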
